A study of Saccharomyces cerevisiae with 24 samples.

Results

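The ubiquinone synthesis genes of Saccharomyces cerevisiae, COQ1 to COQ9, were followed across every condition of a microarray study of oxygen, heme and the transcription factor Hap1. The 9 genes were taken by name, with earlier results of these data known, and each was read from its brightest probe set. All 9 were found among the 5449 genes named on the arrays of the oxygen experiments and among the 5656 genes named on the arrays of the heme experiments. The series held 24 Affymetrix arrays, with 8 conditions of 3 arrays.

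The 18 oxygen arrays used strain L51, a MATa strain whose chromosomal HAP1 gene is disrupted (hap1::LEU2) and which also carries trp1::HisG and mutant alleles of ADE1, HIS4, LEU2 and URA3. HAP1 cells carried the complete HAP1 gene on a low-copy ARS-CEN plasmid, and Δhap1 cells carried the empty vector, so that both kinds of cell lacked the chromosomal copy. For HAP1 cells there were arrays of aerobic growth, of 1.5 h and 6 h of anaerobic growth, and of aerobic cells given cobalt chloride at 400 µM over 6 h. For Δhap1 cells there were arrays of aerobic growth and of 6 h of anaerobic growth. A UAS1/CYC1-lacZ reporter plasmid was also introduced to monitor Hap1 activity and oxygen. The 6 heme arrays used strain MHY100 (MATa, with a deletion allele of HEM1, the first gene of heme synthesis, and mutant alleles of ADE1, HIS4, LEU2 and URA3). These cells cannot make the heme precursor ALA and were fed it, at 2.5 µg/ml in the heme-deficient group and at 250 µg/ml in the heme-sufficient group. The heme arrays were of another design and were normalized separately, so levels are compared only within a strain. Per the study's methods, the RNA of the 3 replicates of a condition came from separate cultures. The paper also says that another yeast strain served for 1 of the 3 replicates, without giving the strain or the replicate there. The array titles name L51 or MHY100 throughout, so a strain difference between replicate numbers could not be checked.

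Ubiquinone (coenzyme Q) is the lipid that carries electrons in the inner mitochondrial membrane, from the dehydrogenases that reduce it to the cytochrome bc1 complex that oxidizes it. Yeast builds it in the mitochondrion from an aromatic ring and a polyprenyl tail. After the ring and tail are joined, a complex of Coq proteins modifies the ring, and the hydroxylations of the ring consume molecular oxygen. COQ1 encodes the synthase of the polyprenyl tail and COQ2 the transferase that joins tail to ring. COQ6, a flavin-dependent monooxygenase, and COQ7, a di-iron hydroxylase annotated as CAT5 on the arrays, add hydroxyl groups with oxygen. COQ3 and COQ5 encode an O- and a C-methyltransferase. COQ4 is required for the assembly of the complex, COQ9 encodes a lipid-binding partner of Coq7, and COQ8 an atypical protein kinase family member needed for stability of the complex.

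Values are log2 of the deposited intensities, and a difference of 1 on this scale is a doubling. The HAP1 readings followed the labels, at 9.77 to 12.13 on the arrays of HAP1 cells and 5.76 to 6.57 on those of Δhap1 cells. The cobalt arrays are named HAP1 in their titles and empty vector in their descriptions, and their HAP1 readings of 10.23 to 10.98 lay with the HAP1 cells. All 6 MHY100 arrays carry the HEM1 deletion, and the HEM1 probe set read 7.49 to 8.60 on them, with no array of cells with HEM1 of that design to set beside it. Several arrays stood apart from their group in the genes used as checks, which are the hypoxic genes ANB1 and DAN1 and the aerobic gene CYC1. Replicate 3 at 1.5 h read 8.01 for DAN1, against 14.15 and 13.57 on the other arrays of that time and 7.54 to 8.82 in air. Replicate 3 of cobalt read 12.22 for ANB1 and 9.41 for CYC1, against 9.49 and 9.64 for ANB1 and 13.46 and 13.51 for CYC1 on the other cobalt arrays. Replicate 3 of HAP1 cells at 6 h read 13.02 for ANB1 and 12.77 for DAN1, against 14.31 and 14.33 for ANB1 and 14.50 and 14.55 for DAN1 on the other arrays of that group. Replicate 2 of aerobic HAP1 cells, replicate 2 of cobalt and replicate 3 at 1.5 h received the lowest array weights in limma, at 0.163, 0.176 and 0.16. Each replicate number was hybridized on its own day in 2 rounds, and the anaerobic 6 h arrays were never in the round of the aerobic arrays of their day, so that for 6 h against air the round and the treatment cannot be told apart within a day.

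COQ6 and COQ7, the genes of the oxygen-using hydroxylases, were higher in HAP1 cells after 6 h without oxygen than after 1.5 h. COQ6 read 10.50, 9.42 and 10.56 in replicates 1, 2 and 3 at 1.5 h, and 11.90, 11.17 and 10.79 at 6 h. COQ7 read 9.36, 10.25 and 9.96 at 1.5 h, and 10.79, 11.33 and 10.41 at 6 h. For both genes every 6 h array lay above every 1.5 h array, although the margin between the nearest arrays was small. The share of all genes whose arrays separate in this way was not counted, here or in the other comparisons. COQ6 rose by 1.13 ± 0.27 (SE, n = 3 arrays per time), with a 95% interval of 0.54 to 1.72, which is 2.19-fold (limma, adjusted p = 0.025). COQ7 rose by 0.99 ± 0.29, with an interval of 0.37 to 1.61, which is 1.99-fold (limma, adjusted p = 0.038). By same-numbered arrays the differences were 1.40, 1.76 and 0.23 for COQ6 and 1.43, 1.08 and 0.46 for COQ7, smallest in replicate 3 for both genes.

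**Figure D1:**
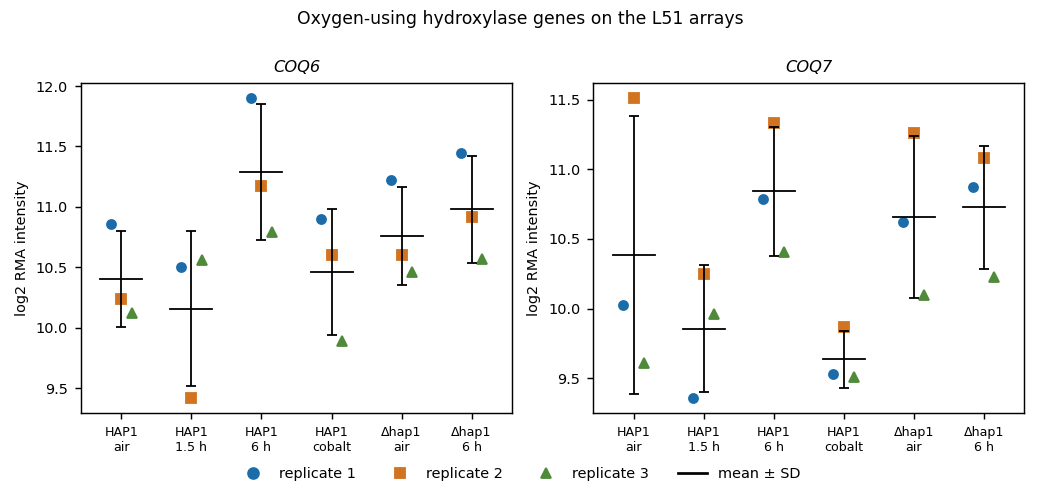
Log2 RMA intensity of COQ6 and COQ7 on the 18 L51 arrays, by condition; symbols are replicates 1 to 3, and bars are the mean ± SD. COQ6 at 6 h in HAP1 cells (10.79 to 11.90) and COQ7 at 6 h (10.41 to 11.33) lie above the 1.5 h arrays (9.42 to 10.56 and 9.36 to 10.25), while COQ7 in aerobic HAP1 cells spreads from 9.61 to 11.51.

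With the deposited scaling and all arrays weighted equally, these were the only members past the threshold in any comparison. The threshold was an adjusted p under 0.05 over all genes. In the comparison of 6 h with 1.5 h, 15.3% of all genes tested changed (3.56% rose and 11.7% fell, or 5.49% and 4.17% with quantile scaling over the named yeast probe sets alone), and 2 of the 9 members rose and 0 fell. At an unadjusted p under 0.05, 5 members were higher and 1 was lower, against 8.39% and 25.3% of all genes. The median change was 0.62 over the members and -0.23 over all genes, and the quantile scaling brought the latter to -0.03 and the former to 0.82. With that scaling COQ6 differed by 1.33 and COQ7 by 1.29 (limma, adjusted p = 0.017 and 0.030), and COQ9 also passed, at 0.89 (limma, adjusted p = 0.028).

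The calls on COQ6 and COQ7 rested on the replicate number as a block. Without the block the adjusted p in limma was 0.13 for COQ6 and 0.22 for COQ7, and 0 of the 5449 genes were called. Without replicate 1 the differences were 0.99 and 0.77 (adjusted p in limma 0.47 and 0.48), and without replicate 2 they were 0.82 and 0.94 (0.16 and 0.13). Without the 1.5 h replicate 3 array, whose DAN1 level was that of aerobic cells, they were 1.54 and 1.28 (adjusted p in limma 0.00065 and 0.0078). The rise was then not particular to these genes. COQ2, COQ4, COQ5 and COQ9 also passed, at 1.06, 1.06, 1.00 and 0.91 (adjusted p in limma 0.022, 0.0038, 0.012 and 0.018). The share of all genes called in that fit is not given here. Without the HAP1 arrays numbered 3 of 1.5 h, 6 h and cobalt, 6 members rose and 0 fell, against 596 and 855 of 5449 genes. The replicate 2 arrays of both times shared a hybridization round and differed by 1.76 for COQ6 and 1.08 for COQ7. With the round as the block COQ6 differed by 1.51 (limma, adjusted p = 0.047) and COQ7 by 0.93 (adjusted p = 0.11).

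Against aerobic HAP1 cells, neither time showed a change in COQ6 or COQ7 that passed the test. Aerobic HAP1 cells read 10.86, 10.24 and 10.12 for COQ6 in replicates 1, 2 and 3, and 10.03, 11.51 and 9.61 for COQ7. The aerobic COQ7 values were the most scattered of any condition, with replicate 2 above every array at 6 h. At 1.5 h the difference from air was -0.24 ± 0.27 for COQ6 (adjusted p = 0.68) and -0.53 ± 0.29 for COQ7 (adjusted p = 0.38, both limma), and on the replicate 3 arrays both genes were instead higher, by 0.44 and 0.35. At 6 h COQ6 was higher in 3 of 3 same-numbered pairs, by 1.05, 0.94 and 0.67, a mean of 0.89 ± 0.27 (limma, adjusted p = 0.12). COQ7 was 0.46 ± 0.29 higher, in 2 of 3 pairs (limma, adjusted p = 0.44). The threshold was met for COQ6 in some alternatives, with 0.93 after quantile scaling (limma, adjusted p = 0.037) and 0.97 without the HAP1 arrays numbered 3 of 1.5 h, 6 h and cobalt (limma, adjusted p = 0.018). Those 3 arrays, which stood apart in the check genes, were left out after the data were seen. With the hybridization round as the block, which links the conditions through the other arrays, COQ6 was 1.42 higher (limma, adjusted p = 0.20).

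**Figure D2:**
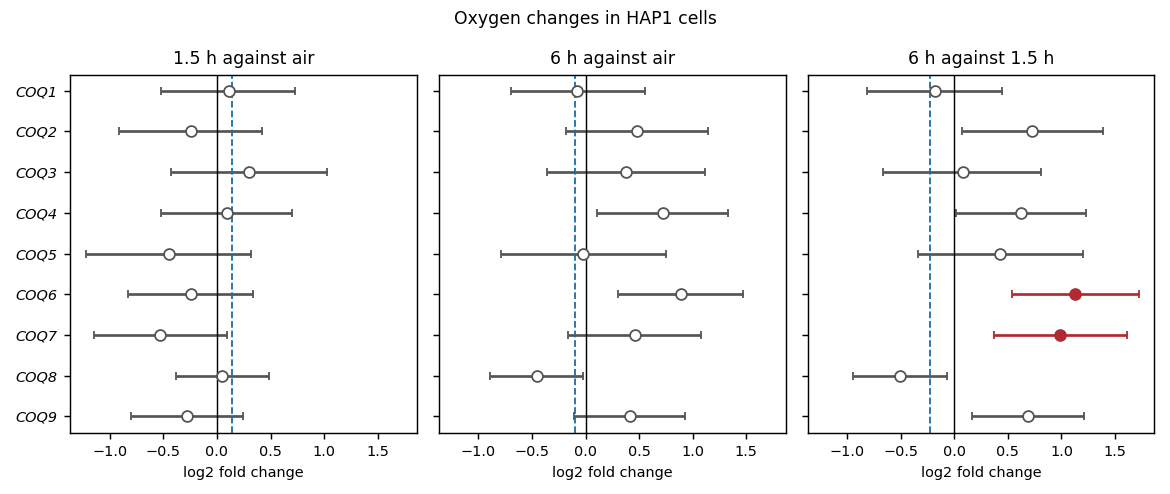
Log2 fold change of each member in HAP1 cells with its 95% interval from limma, for 1.5 h against air, 6 h against air and 6 h against 1.5 h; filled red points have an adjusted p under 0.05 and the dashed blue line is the median of all genes. COQ6 at 1.13 and COQ7 at 0.99 in the third panel are the filled points, and COQ8 lies below 0 in the 6 h panels at -0.45 and -0.51.

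At 1.5 h no member passed the test with all arrays in the fit and weighted equally. Among all genes, 0.0367% rose and 0% fell at this time (3.58% and 4.9% without the HAP1 arrays numbered 3 of 1.5 h, 6 h and cobalt, when COQ5 was called), and 0 of 9 members passed in either direction by limma, by the unadjusted p and by a noise model of the kind the study used. At an unadjusted p under 0.05, 12% of all genes were higher and 3.76% lower. The changes of the members ran from -0.53 (COQ7) to 0.30 (COQ3), with a median of -0.24 against 0.14 over all genes. COQ5, the C-methyltransferase gene, read 12.66, 11.44 and 13.09 at 1.5 h and 13.28, 12.71 and 12.54 in air. It was lower at 1.5 h in replicates 1 and 2 and higher in replicate 3, and the mean difference was -0.45 ± 0.36 (limma, adjusted p = 0.55). Without the 1.5 h replicate 3 array it was -1.02 (limma, adjusted p = 0.029).

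After 6 h without oxygen, HAP1 cells showed 2.15% of all genes changed against air (1.32% higher and 0.826% lower), and 0 of 9 members in either direction. At an unadjusted p under 0.05, COQ4 and COQ6 were higher and COQ8 was lower, against 6.59% and 10.5% of all genes. By the noise model 0 members were called. The median change was 0.41 over the members and -0.10 over all genes, and 6 of the 9 members were above 0. Those at the start of the pathway did not move together: COQ1, for the tail, differed by -0.08, and COQ2, for its attachment to the ring, by 0.48 ± 0.31 (limma, adjusted p = 0.45). The methyltransferase genes COQ3 and COQ5 differed by 0.38 and -0.02.

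COQ4, needed for assembly of the complex, read 11.83, 12.07 and 10.89 in replicates 1, 2 and 3 of HAP1 cells at 6 h, and 10.82, 11.30 and 10.53 in air. Each 6 h array was above its same-numbered aerobic array, by 1.02, 0.77 and 0.36, but the groups overlapped across replicate numbers. The mean difference was 0.72 ± 0.28 (limma, adjusted p = 0.21), and 0.84 without those 3 arrays (limma, adjusted p = 0.032). COQ9, for the lipid-binding partner of Coq7, read 11.78, 12.29 and 11.79 at 6 h, 10.81, 11.56 and 11.43 at 1.5 h and 11.24, 12.09 and 11.32 in air. Its 6 h arrays all lay above its 1.5 h arrays and overlapped those in air. The difference between the times was 0.69 ± 0.24, just outside the threshold (limma, adjusted p = 0.067). It passed in several alternatives, at 0.89 with quantile scaling and 0.91 without the 1.5 h replicate 3 array (limma, adjusted p = 0.028 and 0.018). It also passed without replicate 3 of Δhap1 cells at 6 h (limma, adjusted p = 0.042), but not without the replicate block.

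COQ8, the atypical kinase gene, was the member with the steadiest aerobic level and, in HAP1 cells, the only one lower than air in all 3 same-numbered pairs at 6 h. It read 11.65, 11.39 and 11.50 in aerobic HAP1 cells and 11.37, 11.05 and 10.76 after 6 h. The 6 h arrays all lay below the aerobic ones, the nearest by a small margin. The difference was -0.45 ± 0.20 in HAP1 cells (limma, adjusted p = 0.28). In Δhap1 cells COQ8 read 11.75, 11.55 and 11.67 in air and 11.58, 11.08 and 10.53 at 6 h, a difference of -0.59 ± 0.20 (limma, adjusted p = 0.074). These did not pass the test, and in Δhap1 cells the median of all genes was itself -0.30.

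**Figure D3:**
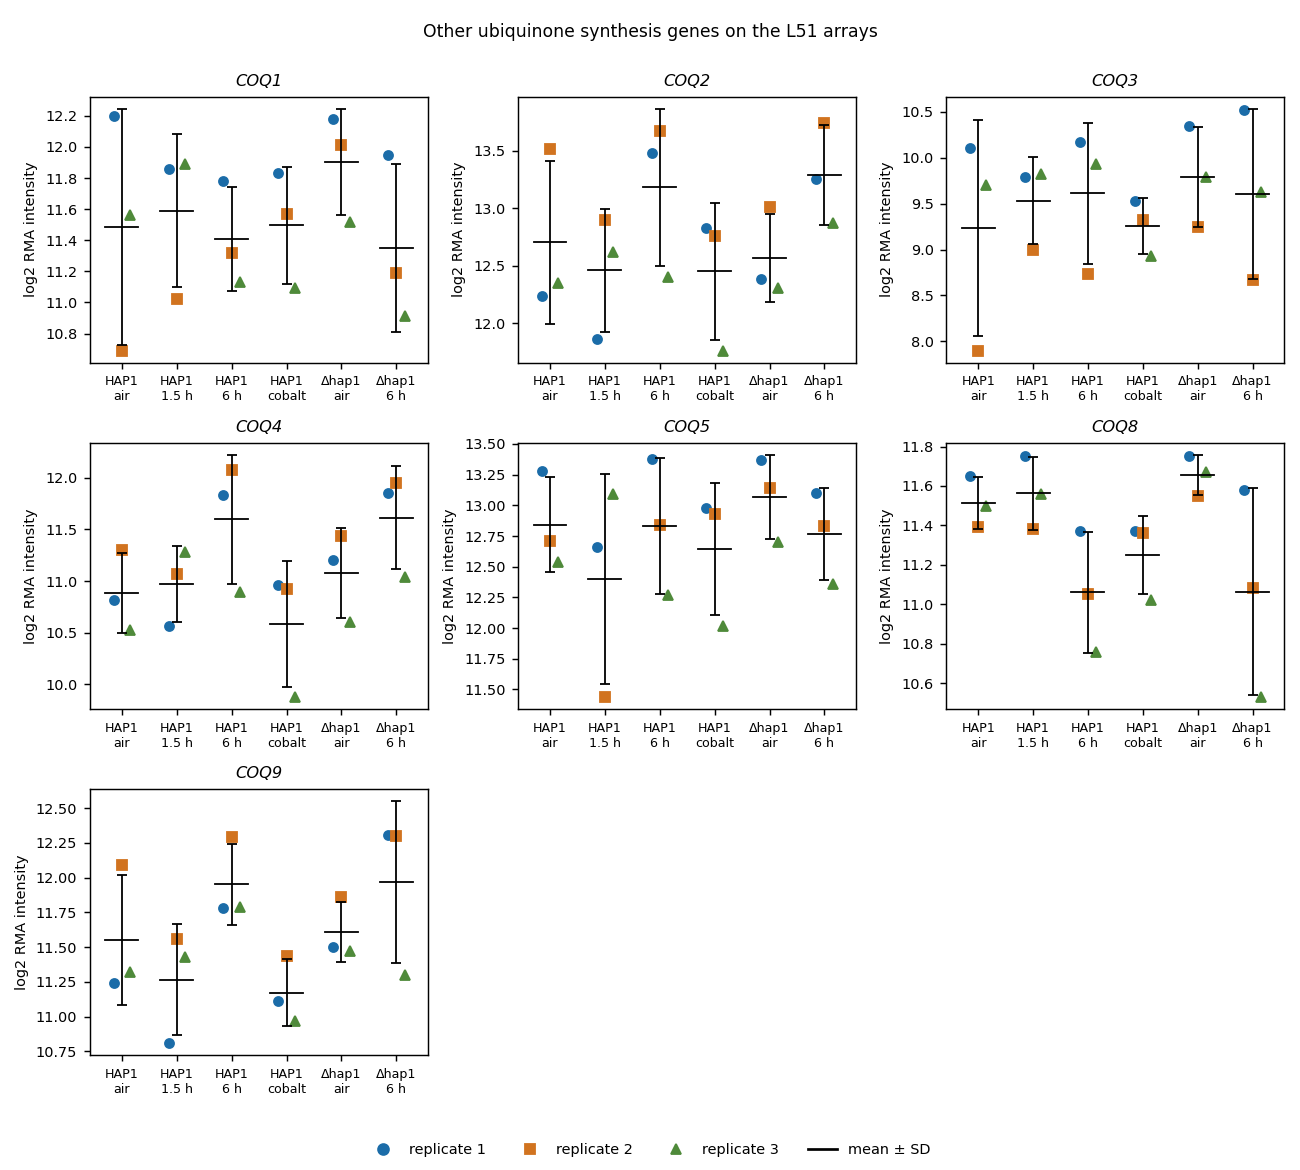
Log2 RMA intensity of the other 7 members on the 18 L51 arrays, by condition; symbols are replicates 1 to 3, and bars are the mean ± SD. Each panel has its own axis; COQ8 shows the narrowest aerobic spread (11.39 to 11.65 in HAP1 cells) and COQ3 the widest (7.90 to 10.11).

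The dependence on Hap1 was examined by comparing Δhap1 with HAP1 cells under each oxygen condition. In air and at 6 h, 0% of genes were higher in Δhap1 cells and 0.0184% were lower, the single gene being HAP1 itself. None of the 9 members passed by limma, by an unadjusted p under 0.05 or by the noise model. At that unadjusted p 0.899% of all genes were higher and 0.496% lower in air, and 0.551% and 0.973% at 6 h. The differences in air ran from -0.14 (COQ2) to 0.56 (COQ3), with every adjusted p in limma at 0.999, and those at 6 h from -0.31 (COQ6) to 0.11 (COQ2), likewise at 0.999. The 95% intervals were wide with 3 arrays a group. For COQ7 they were -0.35 to 0.90 in air and -0.74 to 0.50 at 6 h, so that differences inside those bounds were not excluded. With array weights COQ7 was 0.53 higher in aerobic Δhap1 than in aerobic HAP1 cells (limma, adjusted p = 0.027). The weight of aerobic HAP1 replicate 2 was 0.163, against 7.16 and 2.95 for replicates 1 and 3. By same-numbered arrays COQ7 differed by 0.59, -0.25 and 0.49, so the array that went the other way counted least. How many of all genes passed with array weights is not given.

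Without Hap1, the change of COQ6 from air to 6 h was smaller in size, but the difference between the genotypes did not pass the test. COQ6 read 11.22, 10.60 and 10.46 in aerobic Δhap1 cells and 11.45, 10.92 and 10.57 after 6 h. The Δhap1 cells thus started above and ended below the same-numbered HAP1 arrays in all 3 replicates. The 6 h change was 0.22 ± 0.27 in Δhap1 cells (limma, adjusted p = 0.60) and 0.89 ± 0.27 in HAP1 cells, a difference between the changes of -0.67 ± 0.39, with a 95% interval of -1.5 to 0.17 (limma, adjusted p = 0.93). In this test of the difference, 0% of all genes passed in either direction, and for the members it ran from -0.67 (COQ6) to 0.24 (COQ2). At an unadjusted p under 0.05 there were 0 of 9 members, against 0.606% of all genes higher and 1.14% lower. The median of all genes for this difference was itself -0.21. With quantile scaling over the named yeast probe sets that median was 0, and the members ran from -0.44 to 0.31. COQ7 read 10.62, 11.26 and 10.10 in aerobic Δhap1 cells and 10.87, 11.08 and 10.23 at 6 h. These values overlapped throughout, and the change was 0.06 ± 0.29 (limma, adjusted p = 0.90).

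Among Δhap1 cells, 10.9% of all genes changed from air to 6 h (2.24% higher and 8.64% lower, or 4.68% and 3.21% with quantile scaling), and 0 of 9 members were called, also by the noise model. At an unadjusted p under 0.05 COQ2 was higher and COQ8 was lower, against 6.15% and 24.5% of all genes. COQ2 read 13.26, 13.74 and 12.87 at 6 h against 12.38, 13.01 and 12.31 in air. It was higher in each same-numbered pair, by 0.88, 0.74 and 0.56, while the groups overlapped. The mean was 0.72 ± 0.31 (limma, adjusted p = 0.13). COQ1 differed by -0.55 ± 0.29 (limma, adjusted p = 0.21), lower in 3 of 3 pairs, and COQ3 and COQ5 differed by -0.19 and -0.31, near the median of all genes. Scaled by quantiles over the named yeast probe sets, which moved that median from -0.30 to -0.03, the median of the members went from 0.06 to 0.37 and 0 passed.

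The same 6 h Δhap1 arrays were also set against aerobic HAP1 cells, as the study did, which shares arrays with the comparisons above. Here 7.05% of all genes were called (2.44% higher and 4.61% lower, or 3.95% and 3.06% with quantile scaling), with 0 of 9 members called by limma or by the noise model. COQ4 was 0.73 higher and COQ8 0.45 lower at an unadjusted p under 0.05 (limma, adjusted p = 0.13 and 0.19). At that unadjusted p 6.9% of all genes were higher and 17.8% lower. COQ6 was 0.58 ± 0.27 higher (limma, adjusted p = 0.21). In this comparison COQ4 passed without the 1.5 h replicate 3 array, at the same difference of 0.73 (limma, adjusted p = 0.024).

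Cobalt, which is used to mimic some effects of low oxygen, gave values for COQ7 lower than air in each same-numbered pair. COQ7 read 9.53, 9.87 and 9.51 with cobalt, the narrowest spread of its 6 conditions, and the pairs differed by -0.50, -1.65 and -0.10. The middle pair included the aerobic replicate 2 array, which carried the highest COQ7 value of all. The mean was -0.75 ± 0.29 (limma, adjusted p = 0.47). Among all genes 0.0184% rose and 0.128% fell, and 0 of 9 members passed by limma or the noise model. COQ7 alone had an unadjusted p under 0.05, where 4.44% of all genes were higher and 5.73% lower. The other members lay between -0.38 (COQ9) and 0.06 (COQ6). The replicate 1 arrays of both conditions shared a hybridization round, and there the difference in COQ7 was -0.50. Replicate 3 of cobalt, with its high ANB1 and low CYC1, had the lowest cobalt value for each of the 9 members. With that array left out together with the HAP1 arrays numbered 3 of 1.5 h and 6 h, or with all arrays numbered 3, 0 members passed.

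In the heme experiment, none of the 9 members passed, while 1.64% of all genes were called (0.407% higher and 1.24% lower in heme-deficient cells, or 0.548% and 0.99% with quantile scaling). At an unadjusted p under 0.05 COQ4 and COQ7 were higher and COQ2 was lower, against 5.43% and 13.2% of all genes. The noise model called COQ2 alone, as lower, and the share of all genes it called is not given here. The median change was 0.05 over the members and -0.06 over all genes. COQ4 read 6.97, 6.62 and 6.87 in heme-deficient cells and 6.41, 6.10 and 6.05 in heme-sufficient cells. The groups did not overlap, and the difference of 0.63 ± 0.17, with a 95% interval of 0.24 to 1.03, did not pass after adjustment (limma, adjusted p = 0.15).

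COQ7 read 6.25, 5.75 and 5.72 in heme-deficient and 5.17, 5.62 and 5.32 in heme-sufficient cells. The lowest deficient array was just above the highest sufficient one, and the difference was 0.54 ± 0.20 (limma, adjusted p = 0.24). COQ7 and COQ8 lay below the median of all probe sets on all 6 MHY100 arrays, and COQ4 on 3 of the 6, so that these are dim readings. COQ2 read 8.05, 7.23 and 7.55 in heme-deficient and 8.05, 8.04 and 8.44 in heme-sufficient cells. Its highest deficient value matched the middle of the sufficient group, and the difference was -0.56 ± 0.24 (limma, adjusted p = 0.26). COQ6 differed by 0.15 (limma, adjusted p = 0.61), COQ5 by -0.21 and COQ1, COQ3, COQ8 and COQ9 by no more than 0.08 in size. COQ9 had 3 probe sets on these arrays, which differed by -0.08, 0.29 and 0.03.

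**Figure D4:**
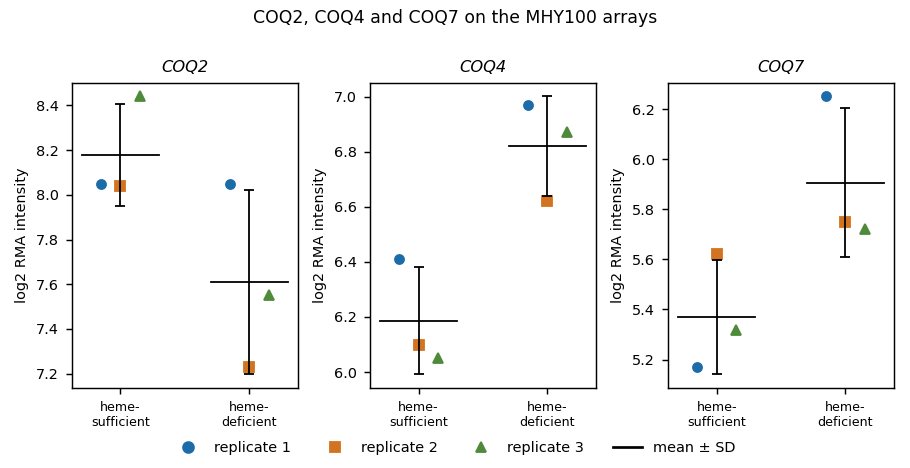
Log2 RMA intensity of COQ2, COQ4 and COQ7 on the 6 MHY100 arrays; symbols are replicates 1 to 3, and bars are the mean ± SD. The heme-deficient arrays lie above the heme-sufficient ones for COQ4 (6.62 to 6.97 against 6.05 to 6.41) and COQ7 (5.72 to 6.25 against 5.17 to 5.62), and overlap them for COQ2.

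The genes around ubiquinone were read in the same fits. The enzymes that reduce ubiquinone numbered 9 (the NADH dehydrogenases NDI1, NDE1 and NDE2, the 4 subunits of succinate dehydrogenase, GUT2 and PUT1). In HAP1 cells all 9 were below air at 1.5 h, with a median of -0.74 and 0 called (limma). Without the 3 arrays named above 4 of them fell, with a median of -1.21, against 267 of 5449 genes that fell. Between 1.5 and 6 h 3 of the 9 rose and 0 fell: SDH4 by 1.84, SDH1 by 1.29 and NDE2 by 0.80 (limma, adjusted p = 0.038, 0.042 and 0.044), against a background of 3.56% of genes that rose. The median of the list was 0.80 in that comparison, beside 0.62 for the ubiquinone synthesis genes. Without the 3 arrays named above 5 rose and 1 fell, against 596 and 855 of 5449 genes. At 6 h against air the median was -0.12.

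The cytochrome bc1 complex, which takes electrons from ubiquinol, had 9 measured genes. At 1.5 h against air 0 were called (limma), with a median of -0.80. Without the 3 arrays named above 4 fell, with a median of -1.35, against 267 of 5449 genes that fell. All 9 were below air at 6 h in HAP1 cells, from -2.44 to -1.08, with a median of -1.31, and QCR6 passed, having fallen by 2.11 (limma, adjusted p = 0.037). Without the 3 arrays named above 5 of them fell, with a median of -1.75, against 192 of 5449 genes that fell in that fit. Against 1.5 h the median was -0.52, and QCR6 fell by 2.12 (limma, adjusted p = 0.021), while without those 3 arrays 4 of the 9 fell, 4 were above 0 and the median was -0.17. In heme-deficient cells 6 of the 9 fell and 0 rose, against 1.24% and 0.407% of all genes, with a list median of -2.11, and 4 fell with quantile scaling. The largest falls were in QCR10 (-2.79), QCR6 (-2.45), QCR9 (-2.26) and RIP1, the Rieske iron-sulfur protein (-2.11; limma, adjusted p = 0.0056, 0.0060, 0.039 and 0.0042). The ubiquinone synthesis genes, at a median of 0.05, were near 0 on the same arrays. Among the dehydrogenases NDE1 fell by 2.89 in heme deficiency (limma, adjusted p = 0.0035).

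**Figure D5:**
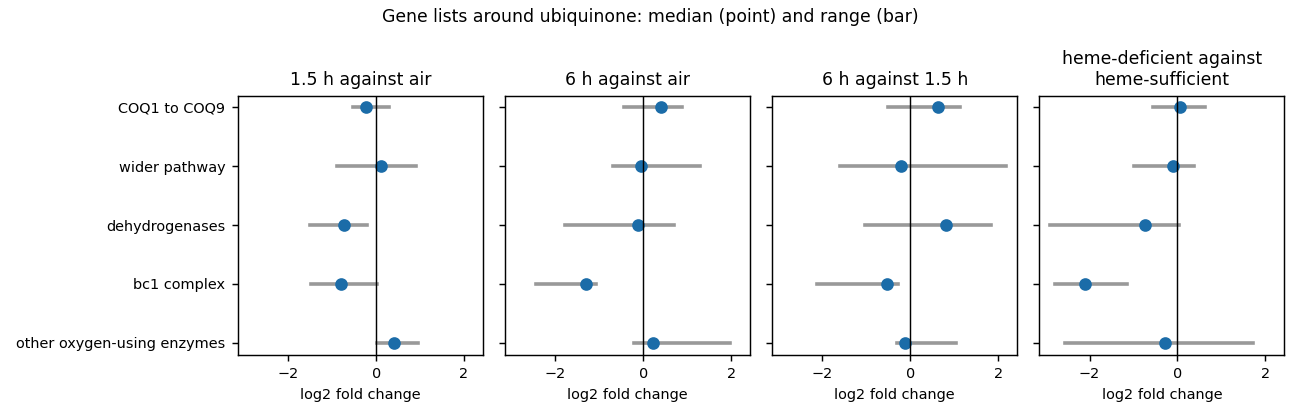
Median (point) and range (bar) of the log2 fold changes of 5 gene lists in 4 comparisons. COQ1 to COQ9 have medians of -0.24, 0.41, 0.62 and 0.05 from left to right, and the bc1 complex -0.80, -1.31, -0.52 and -2.11.

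Of the other genes of ubiquinone synthesis, transport and control, 20 of 22 were measured. Their changes between 1.5 and 6 h ran from -1.60 to 2.18, and 0 rose and 1 fell past the threshold. Of all genes 3.56% rose and 11.7% fell. The gene that fell was PUF3, which encodes an RNA-binding protein that targets transcripts of mitochondrial proteins (-1.60, limma, adjusted p = 0.033). In heme deficiency HFD1, an aldehyde dehydrogenase that makes the ring precursor, fell by 0.82 (limma, adjusted p = 0.043). It was the only gene of the list called there, against 1.24% of all genes that fell. With quantile scaling 0 of the 20 were called in either comparison. COQ10, for a ubiquinone-binding chaperone, and COQ11 did not pass in any comparison, and at 1.5 h COQ10 was 0.65 below air (limma, adjusted p = 0.44). The medians of the list were -0.22 between the times and -0.11 in heme deficiency, close to those of all genes.

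Among the other biosynthetic enzymes that consume oxygen, 13 genes were measured, from sterol, unsaturated fatty acid, sphingolipid, heme and NAD synthesis. At 6 h against air 1 of the 13 rose in HAP1 cells, HEM14, the protoporphyrinogen oxidase gene, by 1.21 (limma, adjusted p = 0.023), and 0 fell. Of all genes 1.32% rose and 0.826% fell there. In Δhap1 cells against their own air 3 of the 13 rose and 0 fell, against 2.24% and 8.64% of all genes. BNA2 rose by 1.66, OLE1, the fatty acid desaturase gene, by 0.88 and ERG25 by 0.50 (limma, adjusted p = 0.022, 0.040 and 0.0499). With quantile scaling ERG25 did not pass. Between 1.5 and 6 h 0 of the 13 passed, against 3.56% of all genes that rose and 11.7% that fell. The list median was -0.12, and whether this list differs from the ubiquinone synthesis genes was not tested. Without the 3 arrays named above 1 rose and 1 fell, against 596 and 855 of 5449 genes. With all arrays HEM14 was 0.47 and BNA2 0.78 higher between the times (limma, adjusted p = 0.17 for both). In heme deficiency HEM13, the coproporphyrinogen oxidase gene, rose by 1.73 and ERG5 fell by 2.56 (limma, adjusted p = 0.016 and 0.0081). These were the only calls among the 13, against 0.407% of all genes that rose and 1.24% that fell.

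Of 9 regulators of respiration, glucose repression and hypoxia, 4 fell and 0 rose between 1.5 and 6 h. These were ROX1, the hypoxic repressor gene (-2.47), HAP4, the activating subunit of the Hap2/3/4/5 complex (-2.21), MIG1, the glucose repressor gene (-1.43), and HAP2 (-0.90; limma, adjusted p = 0.048, 0.018, 0.027 and 0.031), against 11.7% of all genes that fell. With quantile scaling 1 of the 9 fell, HAP4, and without the 3 arrays named above 4 fell and 1 rose. Against air at 6 h HAP4 fell by 2.06 and UPC2, an activator of sterol and hypoxic genes, rose by 2.69 (limma, adjusted p = 0.033 and 0.023). In heme deficiency HAP4 fell by 1.43 (limma, adjusted p = 0.022).

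The members did not all vary together, although COQ2, COQ4, COQ6, COQ7 and COQ9 did, with every pair among them at 0.66 or more. After the mean of each replicate number was subtracted, the 36 pairs of members had a median Pearson correlation of 0.34 over the 18 L51 arrays. The range was -0.40 (COQ2 with COQ8) to 0.89 (COQ2 with COQ4). Of the pairs, 28 were positive and 14 exceeded 0.5, and no background of other gene pairs was drawn. COQ7 with COQ9 gave 0.86, COQ4 with COQ9 0.84, COQ4 with COQ6 0.80 and COQ6 with COQ7 0.66. COQ8 ran apart from COQ2, COQ4 and COQ6, with correlations of -0.40, -0.27 and -0.33. On the 6 MHY100 arrays COQ2 with COQ4 gave -0.54 and COQ6 with COQ7 0.49. These points share arrays, normalization and hybridization days, and the correlations are descriptions.

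The genes whose pattern over the 18 L51 arrays, treated the same way, was most like that of COQ6 were RME1 (r = 0.956), PST2 (0.936), DAL4 (0.931), PPE1 (0.928) and DFM1 (0.914). On the 6 MHY100 arrays their correlations with COQ6 were 0.772, 0.837, 0.081, -0.144 and 0.371 in the same order, so that the likeness was not shared by all of them there. For COQ7 the nearest genes were EMI2 (0.958), YNR014W (0.941), UGA1 (0.939), YOL162W (0.931) and YPL247C (0.929). Their correlations with COQ7 on the MHY100 arrays were 0.914, 0.701, 0.765, 0.737 and 0.778.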

How the data were processed

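The arrays were scanned and converted with Affymetrix GCOS, and the authors computed the deposited intensity values with RMA (background correction, quantile normalization and probe-set summary), separately for the 18 L51 and the 6 MHY100 arrays; versions are not given in the sources used here. Values are linear and were taken to log2. The deposited experiment records, used only for hybridization times, hold other text; 1 heme-deficient array has none. Of 10928 L51 probe sets 5498 named 1 yeast gene (5449 genes) and of 9335 MHY100 probe sets 6504 did (5656 genes), from GEO's platform annotation with symbols updated by RefSeq. Each gene was read from its brightest probe set.

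L51 arrays were fitted together in limma 3.58.1 (R 4.3.3) with condition and replicate number, after the study's comparison of same-numbered arrays, and MHY100 arrays with condition only. P-values were Benjamini-Hochberg adjusted over all genes, with a threshold of 0.05. The fits were tested on simulated data. On the L51 arrays the members lay above 95% of the Schizosaccharomyces pombe probe sets on 18 of 18 arrays, except COQ3 on 16, and such genes made up 66.2% to 94.3% of genes per array. Precision is limited by 3 arrays a condition. The noise model followed the study's methods: it called a gene with at least 2 of 3 same-numbered ratios outside the intensity-dependent spread of the reference replicates and none opposite. The share of all genes that it called is not given for any comparison.

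The members and gene lists were chosen with earlier results of these data known. Every member is named; from each list up to 4 genes past the threshold with the largest change are named, or the 1 or 2 with the smallest p. Likeness names 5 genes. For 1 heme-sufficient array the title and source name give different replicate numbers, and the title was used.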

Additional observations from a re-analysis of the deposited data

How the results depend on the processing

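The 2 calls between 1.5 and 6 h were COQ6 and COQ7, and their number was the value most open to the processing. It was 0 without the replicate block, 0 with only the groups compared, 0 by the noise model and 1 with the hybridization round as the block. With quantile scaling it was 3, and with cyclic loess 4, all higher at 6 h. Without the HAP1 arrays numbered 3 of 1.5 h, 6 h and cobalt it was 6, also all higher. With array weights (gene-by-gene estimates) it was 7, of which COQ8 alone was lower at 6 h. Leaving out each replicate number in turn gave 0 to 6, and leaving out the 1.5 h replicate 3 array gave 6. The genes called in all went from 832 to 0 without the block and to 1451 without the 3 arrays. The alternatives on rounds, on single arrays and on the 3 arrays left out together were chosen after seeing the data. Those 3 arrays stood apart in ANB1, DAN1 or CYC1, the check genes for oxygen. The fit without them is therefore not independent of the oxygen changes it gives.

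For 1.5 h against air, 0 became 3 with array weights (COQ5, COQ6 and COQ7, all lower). It became 1 without the 3 arrays (COQ5, lower), and 0 to 1 with single arrays left out. For 6 h against air in HAP1 cells it became 1 with quantile scaling (COQ6, higher), against 119 higher and 49 lower of 5449 genes. It became 2 without the 3 arrays (COQ4 and COQ6, higher), against 196 higher and 192 lower. With array weights it became 6, with COQ2, COQ4, COQ6, COQ7 and COQ9 higher and COQ8 lower. It was 0 to 2 with replicates or single arrays left out, the 1 without replicate 3 being COQ6 (limma, adjusted p = 0.0499). With array weights it became 4 for Δhap1 cells against their own air, with COQ2 and COQ4 higher and COQ1 and COQ8 lower. Against aerobic HAP1 cells it became 6, with COQ1 lower and COQ2, COQ4, COQ6, COQ7 and COQ9 higher. For the loss of HAP1 in air it became 1, with COQ7 higher. The share of all genes called with array weights is not given here. Against aerobic HAP1 cells it was 1 without the 3 arrays and 0 to 1 with arrays left out. In heme deficiency the noise model gave 1, COQ2. With the replicate block on the heme arrays it stayed 0, while the genes called in all went from 93 to 408.

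No member changed sign while called. Same-numbered arrays deviated together in most but not all pairs of conditions: correlations over genes exceeded 0.1 in 13, 10 and 12 of 15 pairs for replicates 1, 2 and 3. The block was kept because the study set same-numbered arrays against each other. The offset of 50, the filter on dim genes, the mean of probe sets and the intensity trend with robust variance changed no member's call, and the filter left COQ7 and COQ8 out of the heme fit. The noise model has no value for the difference between the genotypes. Counts of motifs in promoters were not run. Dim readings limit COQ7 and COQ8 on the MHY100 arrays and COQ3 on 2 L51 arrays.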
